A study of Mus musculus with 4 samples.

Results

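Toll-like receptors are the innate immune sensors of microbial lipids, proteins, and nucleic acids, and they were followed here in CD45+ cells that had been sorted from dura mater, the outer meningeal layer. The set was chosen by gene name as *Tlr1* to *Tlr9* and *Tlr13*, which gave 10 of the 55401 genes in the table, and all 10 passed the expression filter of the comparison. CD45, encoded by *Ptprc*, is carried by all leukocytes, so each library held a mixture of macrophages, neutrophils, dendritic cells, and lymphocytes. The male C57BL/6J mice, labeled as WT, had received 2 μl of an AAV at the age of 4 wk, injected into the CSF of the cisterna magna. The vector named AAV-mVEGF-C delivers the whole mouse VEGF-C protein. The one named AAV-CTRL encodes domains 4 to 7 of mouse VEGFR-3 joined to an immunoglobulin part. Both groups were thus given a vector, and no library came from mice without one. How long after the injection the cells were sorted is not stated for these libraries. Each group had 2 libraries, numbered by experiment, and each library came from a pool of 10 to 12 mice. The comparison asks whether VEGF-C delivery altered the receptor genes in dural leukocytes. In such mixtures, fewer cells of a type and less RNA per cell cannot be told apart.

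Each receptor binds its ligand through leucine-rich repeats and signals through a cytoplasmic TIR domain. TLR1, TLR2, TLR4, TLR5, and TLR6 act at the cell surface, whereas TLR3, TLR7, TLR8, TLR9, and TLR13 sense nucleic acids within endosomes, to which the chaperone UNC93B1 carries them. Most signal through the adaptor MyD88, TLR3 through TRIF (*Ticam1*), and TLR4 through both, toward NF-κB and interferon regulatory factors. In leukocytes, macrophages and neutrophils are rich in surface receptors, while *Tlr9* is also expressed by B cells and plasmacytoid dendritic cells.

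Between 32520709 and 46409700 reads per library were assigned to genes. The deepest library, AAV-CTRL 1, stood apart with 20990 detected genes, while the others had 29221 to 37512. *Ptprc* was at 945.9 to 1151 CPM (counts per 1000000 reads after TMM scaling) in all libraries, as the sort requires. Fibroblast markers were also present, and their 5 genes summed to 584 and 918 CPM with AAV-CTRL (libraries 1 and 2) and to 311 and 472 CPM with AAV-mVEGF-C (libraries 1 and 2). All 5 were lower in both AAV-mVEGF-C libraries than in both AAV-CTRL libraries, as 15.2% of all tested genes were, and 4 of them (*Col1a1*, *Col1a2*, *Dcn*, and *Pdgfra*, named after their values were seen) had an unadjusted p under 0.05. The part of these cells in the receptor levels was not tested. The 4 monocyte markers summed to 1088 to 1443 CPM and 6 dendritic cell markers to 233 to 278 CPM, with overlapping groups in both sums. The 5 T cell markers summed to 201 and 172 CPM with AAV-CTRL and to 222 and 219.7 CPM with AAV-mVEGF-C, and 5 endothelial markers to 64.8 and 74.9 CPM and to 56.0 and 56.7 CPM, so both sums were separate. In log2 fold change, 4 T cell markers were above 0 and 1 below, and 2 endothelial markers above and 3 below. Both AAV-mVEGF-C libraries lay above both controls in 2 T cell markers (40%) and 1 endothelial marker (20%), beside 16.8% of all tested genes. They lay below both in 0 T cell markers and 3 endothelial markers (60%), beside 15.2%. The 2 endothelial markers above 0, *Prox1* and *Flt4*, named after their values were seen, had only 13 to 39 and 38 to 61 reads per library. In each list 1 gene (20%, beside 2.64% of all tested genes) had an unadjusted p under 0.05 (*Cd3g*, higher, and *Kdr*, lower, both named after their values were seen). In edgeR's quasi-likelihood test, 0 of 19806 genes (0%) had an adjusted p under 0.05, and 523 (2.64%) had an unadjusted p under 0.05. At the same threshold limma-voom gave 0 genes (0%) and DESeq2 gave 72 (0.364%), and edgeR with experiment as a replicate block gave 11 (0.0555%), none of them a receptor.

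None of the 10 receptor genes was called higher or lower in this comparison. By edgeR, 0 of 10 had an adjusted p under 0.05 and 0 of 10 an unadjusted p under 0.05, and by DESeq2 and limma-voom 0 of 10 had an adjusted p under 0.05. Of the 10 log2 fold changes, 6 were above 0 and 4 below, from −0.23 for *Tlr4* to 0.40 for *Tlr3*, with a median of 0.085 beside 0.0034 for all genes tested. With AAV-CTRL 1 left out, 3 were above 0 and 7 below. The adjusted p from edgeR was at least 0.999 for each receptor. The groups overlapped in CPM for 9 of the 10. *Tlr3* alone had both AAV-mVEGF-C libraries above both AAV-CTRL libraries, a pattern that 16.8% of all tested genes showed, and 0 of 10 had both below, as 15.2% of tested genes did. The 95% intervals of the log2 fold changes were wide. They reached from −0.84 to 0.40 for *Tlr1* and from −0.64 to 1.07 for *Tlr5*, and the narrowest, for *Tlr7*, from −0.60 to 0.25, so the data do not show that the levels were equal.

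The receptors differed from one another in level. TPM corrects for gene length so that genes can be compared, but the correction was not the same in each library. Reads per TPM, at equal library size, ranged from 1.135-fold for *Tlr9* to 1.91-fold for *Tlr3* across libraries. In TPM, *Tlr2* was the most abundant in all 4 libraries, at 31.0 ± 6.15 TPM (SD over the 4 libraries), and *Tlr5* the least abundant in all 4, at 2.41 ± 0.772 TPM. *Tlr2* had no library as low as the highest library of any other receptor (25.1 TPM against 17.1 TPM). *Tlr13* followed at 15.7 ± 2.19 TPM, *Tlr9* at 12.2 ± 3.60 TPM, and *Tlr7* at 10.9 ± 2.10 TPM, and these traded ranks 2 to 4 between libraries. *Tlr8* held rank 5 in every library, at 8.28 ± 1.06 TPM. *Tlr1* was at 5.76 ± 1.47 TPM, *Tlr4* at 5.25 ± 1.06 TPM, *Tlr3* at 3.91 ± 1.69 TPM, and *Tlr6* at 3.66 ± 0.632 TPM. Apart from *Tlr2* and *Tlr13*, every pair of neighbors in this order had overlapping ranges over the 4 libraries, so these ranges do not separate them. Within libraries, however, *Tlr8* and *Tlr5* kept their ranks in TPM, so *Tlr7* lay above *Tlr8*, *Tlr8* above *Tlr1*, and *Tlr6* above *Tlr5* in all 4. The order of *Tlr6* and *Tlr5* rests on the length correction. In CPM, *Tlr5* was at 6.60 and 11.3 with AAV-CTRL and at 8.86 and 12.0 with AAV-mVEGF-C, against 7.42 to 7.64 for *Tlr6* over the 4 libraries.

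**Figure D1:**
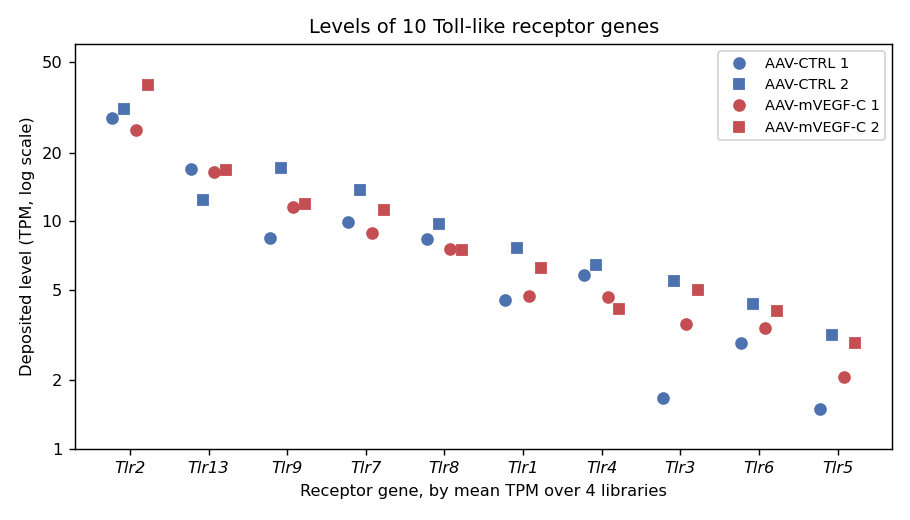
Deposited TPM (log axis) of the 10 receptor genes, one point per library, blue for AAV-CTRL and red for AAV-mVEGF-C, circles for experiment 1 and squares for experiment 2. *Tlr2* lies above all other receptors in every library and *Tlr5* lies lowest, between 1.49 and 3.17 TPM.

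The surface and endosomal receptors held nearly equal parts of the total. The 5 surface genes summed to 43.1 and 52.7 TPM with AAV-CTRL and to 39.9 and 56.7 TPM with AAV-mVEGF-C. The 5 endosomal genes summed to 45.3 and 58.4 TPM with AAV-CTRL and to 48.0 and 52.2 TPM with AAV-mVEGF-C. Endosomal receptors thus made up 51.2% and 52.6% of the receptor TPM with AAV-CTRL and 54.6% and 47.9% with AAV-mVEGF-C, and the groups overlapped on each of these measures. In CPM the endosomal genes summed to 202.7 and 226.2 with AAV-CTRL and to 228.3 and 231.5 with AAV-mVEGF-C, which did not overlap, and the log2 ratio of the group means was 0.10 in CPM but −0.050 in TPM. In reads, the 10 genes together took 14204 to 16643 of the assigned reads per library, or 0.0359 to 0.0451%.

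Among the surface receptors, *Tlr2* encodes the shared partner of TLR1 and TLR6 in sensing bacterial lipoproteins (ENSMUSG00000027995.10, chr3:83836272-83841767 of GRCm38, minus strand, with its whole coding sequence in 1 exon). It was at 118.1 and 118.0 CPM with AAV-CTRL and at 109.7 and 172.2 CPM with AAV-mVEGF-C. The AAV-CTRL libraries were alike, and the AAV-mVEGF-C libraries lay on either side of them. The log2 fold change was 0.26 ± 0.24 (SE; edgeR adjusted p = 0.999), and without AAV-mVEGF-C 2 it was −0.099.

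*Tlr1* (ENSMUSG00000044827.10, chr5:64924679-64933563, minus strand) and *Tlr6* (ENSMUSG00000051498.7, chr5:64952031-64960097, minus strand) lie side by side and encode the partners of TLR2 for triacylated and diacylated lipoproteins. They were the only 2 of the 10 receptors whose read values were not whole numbers. Their coding sequences, each in 1 exon, were identical at 79.7% of 2281 aligned bases, with 68.2% in the first of 4 equal parts of the alignment and 96% in the third. Of the 100-base windows along the transcript with the longest coding sequence, 8.85% for *Tlr1* and 7.24% for *Tlr6* occurred in the other gene without a mismatch. The longest identical stretch, of 229 bases, is shown because a read that falls wholly within it matches both genes equally. It covers chr5:64925537-64925765 in *Tlr1* and chr5:64953828-64954056 in *Tlr6* (GRCm38, minus strand, coding sequence of GENCODE M21).
Tlr1 and Tlr6: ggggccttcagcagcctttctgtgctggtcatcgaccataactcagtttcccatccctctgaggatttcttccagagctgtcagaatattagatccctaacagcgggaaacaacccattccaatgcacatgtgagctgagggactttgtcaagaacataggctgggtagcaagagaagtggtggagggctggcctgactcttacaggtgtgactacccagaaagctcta

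The ungapped 60-base coding window in which the genes were least alike is shown for contrast, with the 29 bases that differ in capitals. It lies upstream of the identical stretch, at chr5:64926004-64926063 in *Tlr1* and chr5:64954295-64954354 in *Tlr6*, and reads from such a part can be assigned.
Tlr1: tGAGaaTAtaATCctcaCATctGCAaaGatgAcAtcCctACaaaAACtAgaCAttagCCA
Tlr6: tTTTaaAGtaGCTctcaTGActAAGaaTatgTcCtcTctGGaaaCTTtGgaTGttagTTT

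*Tlr1* had 739 and 767 reads with AAV-CTRL and 556 and 606 reads with AAV-mVEGF-C. *Tlr6* had 336 and 260 reads with AAV-CTRL and 290 and 242 reads with AAV-mVEGF-C. In each library the reads of both genes added up to a whole number, 1075 and 1027 with AAV-CTRL and 846 and 848 with AAV-mVEGF-C, so the fractions left over in one gene were made up by the other. *Tlr1* received 68.7 and 74.7% of that sum with AAV-CTRL and 65.7 and 71.4% with AAV-mVEGF-C. Scaled for library size, *Tlr1* was at 16.5 and 22.3 CPM with AAV-CTRL and 14.2 and 19.1 CPM with AAV-mVEGF-C, a log2 fold change of −0.22 ± 0.26. *Tlr6* ran from 7.42 to 7.64 CPM over the 4 libraries, the narrowest spread of the 10 receptors, with a log2 fold change of −0.0016 ± 0.27. Both genes were also summed before the fit, a step chosen after seeing the data. The log2 fold change of the sum was −0.16 ± 0.21 (SE, with an edgeR adjusted p of 0.999). The sum cannot show whether the division of reads hid a difference, because edgeR called 0 of 19806 genes in this comparison. Opposite changes in the genes would also cancel in a sum. The effect of the division on the comparison was thus not tested.

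*Tlr4*, the receptor of lipopolysaccharide (ENSMUSG00000039005.13, chr4:66827584-66930284, plus strand), was at 20.73 and 27.65 CPM with AAV-CTRL and at 21.04 and 20.07 CPM with AAV-mVEGF-C. AAV-CTRL 2 stood above the other libraries, which lay close together. The log2 fold change was −0.23 ± 0.21 (SE; edgeR adjusted p = 0.999), and it was −0.0041 without AAV-CTRL 2. In TPM the groups of *Tlr4* were separate, at 5.82 and 6.43 TPM with AAV-CTRL against 4.66 and 4.10 TPM with AAV-mVEGF-C, with an unadjusted p of 0.135 and an adjusted p of 0.837 from limma on log2(TPM + 1). *Tlr5*, the flagellin receptor (ENSMUSG00000079164.8, chr1:182954788-182976044, plus strand), was at 6.60 and 11.3 CPM with AAV-CTRL and at 8.86 and 12.0 CPM with AAV-mVEGF-C. Both groups spread widely and overlapped, with a log2 fold change of 0.22 ± 0.35.

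**Figure D2:**
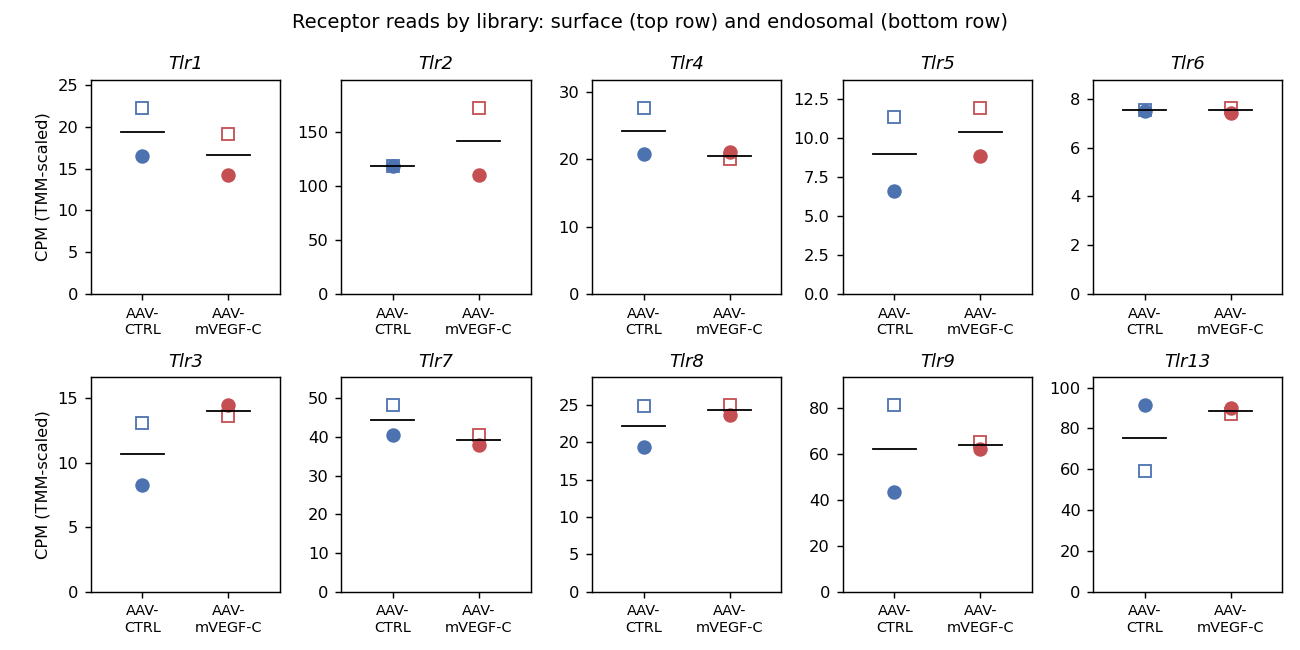
TMM-scaled CPM (linear axes from 0) of each receptor in each library, filled circles for experiment 1, open squares for experiment 2, and a bar at the mean of each group of 2. Only in *Tlr3* do both AAV-mVEGF-C libraries, at 13.6 and 14.4 CPM, lie above both AAV-CTRL libraries, and in *Tlr9* and *Tlr13* the AAV-CTRL libraries lie on either side of the AAV-mVEGF-C libraries.

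Among the endosomal receptors, *Tlr3* senses double-stranded RNA (ENSMUSG00000031639.12, chr8:45395665-45411080, minus strand). It was at 8.25 and 13.1 CPM with AAV-CTRL and at 14.4 and 13.6 CPM with AAV-mVEGF-C. AAV-CTRL 1 was low, while AAV-CTRL 2 lay just below the AAV-mVEGF-C libraries. The log2 fold change was 0.40 ± 0.29 (SE; edgeR adjusted p = 0.999), and without AAV-CTRL 1 it was 0.082. In TPM the groups overlapped, at 1.67 and 5.44 TPM with AAV-CTRL and 3.54 and 4.97 TPM with AAV-mVEGF-C. An antisense gene, *Gm45542*, overlaps *Tlr3* on the plus strand, but it had 0 to 2 reads per library.

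*Tlr7* and *Tlr8*, neighbors on chromosome X, encode a receptor of single-stranded RNA and its closest relative. *Tlr7* (ENSMUSG00000044583.13, chrX:167304929-167330558, minus strand) was at 40.5 and 48.2 CPM with AAV-CTRL and at 37.9 and 40.7 CPM with AAV-mVEGF-C, a log2 fold change of −0.17 ± 0.17 (SE; edgeR adjusted p = 0.999). *Tlr8* (ENSMUSG00000040522.5, chrX:167242696-167264329, minus strand) was at 19.4 and 24.9 CPM with AAV-CTRL and at 23.7 and 24.9 CPM with AAV-mVEGF-C, a log2 fold change of 0.13 ± 0.20 (SE; edgeR adjusted p = 0.999). AAV-CTRL 2 was highest for *Tlr7*, AAV-CTRL 1 was lowest for *Tlr8*, and the groups overlapped in both genes. In TPM the difference of *Tlr8* turned to the other sign with separate groups, at 8.35 and 9.76 TPM with AAV-CTRL against 7.55 and 7.48 TPM with AAV-mVEGF-C, so its direction depended on the scale and was not called on either. Unlike *Tlr1* and *Tlr6*, this pair had 64.4% of aligned coding bases in common, the longest identical stretch was 13 bases, and 0 of their 100-base windows occurred in another gene.

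*Tlr9*, the receptor of DNA rich in unmethylated CpG (ENSMUSG00000045322.10, chr9:106222598-106226883, plus strand), had control pools further apart in CPM, as a fold, than those of the other receptors, though not in TPM, where *Tlr3* and *Tlr5* were further apart. It was at 43.3 and 80.9 CPM with AAV-CTRL and at 62.2 and 65.1 CPM with AAV-mVEGF-C. The AAV-mVEGF-C libraries lay between the controls, and the log2 fold change of 0.036 ± 0.30 (SE; edgeR adjusted p = 0.999) turned from −0.36 without AAV-CTRL 1 to 0.57 without AAV-CTRL 2. The 6 B cell markers followed a similar course with AAV-CTRL, at a sum of 273 and 649 CPM, but were at 286 and 315 CPM with AAV-mVEGF-C. Of these 6 genes, 6 had a log2 fold change below 0, 1 of them (16.7%, beside 2.64% of all tested genes) with an unadjusted p under 0.05 (*Ms4a1*, named after its value was seen) and 0 with an adjusted p under it, and 0 were at 0 reads in any library. *Siglech*, a marker of plasmacytoid dendritic cells, was at 34.8 and 68.4 CPM with AAV-CTRL and at 35.1 and 48.2 CPM with AAV-mVEGF-C. Of the 6 dendritic cell markers it belongs to, 4 had a log2 fold change above 0 and 2 below, 3 (50%, beside 16.8% of all tested genes) had both AAV-mVEGF-C libraries above the controls, and 0 had an unadjusted p under 0.05. The part of these cells in the level of *Tlr9* was not tested.

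*Tlr13*, a mouse receptor of bacterial ribosomal RNA (ENSMUSG00000033777.4, chrX:106143204-106160493, plus strand), was at 91.3 and 59.1 CPM with AAV-CTRL and at 90.1 and 87.1 CPM with AAV-mVEGF-C. Here AAV-CTRL 2 was the low library and the other libraries lay close together. The log2 fold change was 0.24 ± 0.23 (SE; edgeR adjusted p = 0.999), and it was −0.035 without AAV-CTRL 2 and 0.57 without AAV-CTRL 1. AAV-CTRL 2 was also the lowest library for the sum of 8 neutrophil markers, at 25790 and 11950 CPM with AAV-CTRL and 15130 and 17160 CPM with AAV-mVEGF-C, with 5 of 8 log2 fold changes above 0 and 3 below. Of these 8, 1 (12.5%, beside 2.64% of all tested genes) had an unadjusted p under 0.05 (*Csf3r*, higher, named after its value was seen), and 2 (25%, beside 16.8%) had both AAV-mVEGF-C libraries above the controls. AAV-CTRL 2 was the highest for the sum of 7 macrophage markers, at 1736 and 2439 CPM with AAV-CTRL and 1476 and 2108 CPM with AAV-mVEGF-C. All 7 had a log2 fold change below 0, 0 of them with an unadjusted p under 0.05. No marker of either list was at 0 reads in any library. The part of these cells in the receptor levels was not tested.

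**Figure D3:**
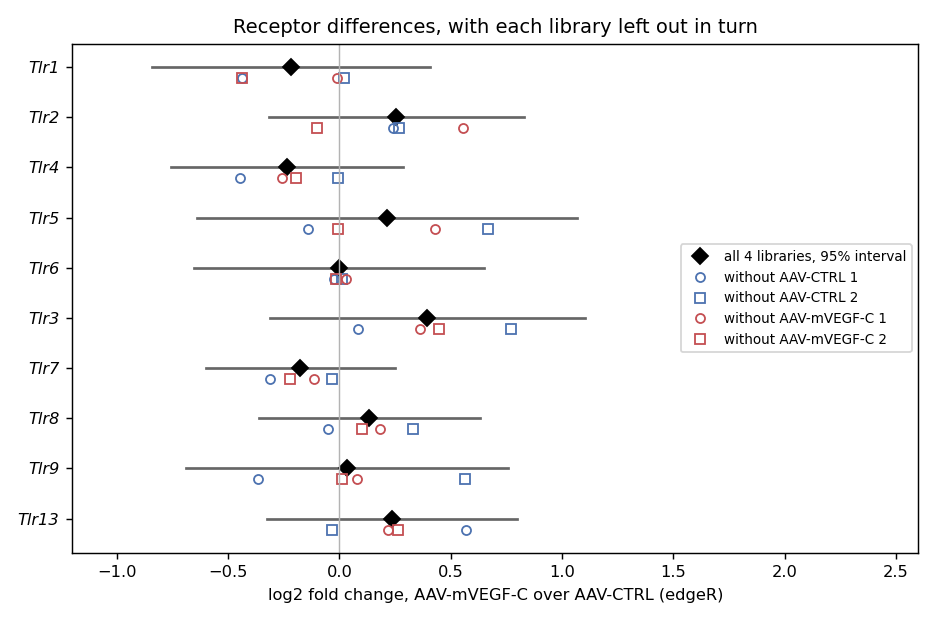
The log2 fold change of each receptor from edgeR (black diamond) with its 95% interval (gray line), and the value when each library was left out (open symbols in the color of the group, circles for library 1 and squares for library 2). All 10 intervals include 0, and *Tlr9* moves from −0.36 to 0.57 depending on which control pool is left out.

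The other mouse family members, *Tlr11* and *Tlr12*, encode receptors of profilin and were also detected at low level. *Tlr11* was at 6.73 and 7.71 CPM with AAV-CTRL and at 4.22 and 8.36 CPM with AAV-mVEGF-C. *Tlr12* was at 4.45 and 10.2 CPM with AAV-CTRL and at 4.28 and 9.06 CPM with AAV-mVEGF-C. For both genes the groups overlapped, with log2 fold changes of −0.20 and −0.14. For both, the libraries of experiment 2 lay above those of experiment 1 in CPM, as 18.8% of all tested genes did. The same order held for 6 of the 10 receptors (*Tlr1*, *Tlr5*, *Tlr6*, *Tlr7*, *Tlr8*, and *Tlr9*) and the opposite order for *Tlr13*, as for 15.4% of all tested genes.

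Of the 82 other genes listed for the family and its pathway, *Tlr11* and *Tlr12* included, 81 could be tested and 0 had an adjusted p under 0.05. With an unadjusted p under 0.05 there was 1 gene, *Hmgb1*, named here because of its value, which encodes a chromatin protein that acts as a danger signal outside the cell. It was at 193 and 131 CPM with AAV-CTRL and at 105 and 110.5 CPM with AAV-mVEGF-C, a log2 fold change of −0.59 ± 0.22 (SE; edgeR adjusted p = 0.999). That 1 gene is 1.23% of the 81, beside 2.64% of all tested genes. Of the 8 co-receptors and accessory proteins, 2 had a log2 fold change above 0 and 6 below, with a median of −0.36, which was −0.18 without AAV-CTRL 2 and −0.21 without AAV-mVEGF-C 1. On log2(TPM + 1) the split was 0 above and 8 below. In CPM, 3 genes (37.5%) had both AAV-mVEGF-C libraries below both controls, beside 15.2% of all tested genes. *Cd14*, which hands lipopolysaccharide to TLR4, was at 319 and 280 CPM with AAV-CTRL and at 252 and 380 CPM with AAV-mVEGF-C. *Ly96*, the MD-2 subunit of the TLR4 complex, was at 2.84 and 3.58 CPM with AAV-CTRL and at 1.69 and 2.65 CPM with AAV-mVEGF-C. *Lbp*, the lipopolysaccharide-binding protein, was at 67.1 and 32.6 CPM with AAV-CTRL and at 34.2 and 35.4 CPM with AAV-mVEGF-C, where AAV-CTRL 1 stood apart. *Cd36*, a scavenger receptor that assists TLR2, had both AAV-mVEGF-C libraries, at 26.7 and 37.9 CPM, below the controls, at 41.5 and 51.8 CPM (log2 fold change −0.53 ± 0.23, edgeR adjusted p = 0.999, and −0.29 without AAV-mVEGF-C 1). In TPM its groups overlapped, at 13.0 and 27.3 TPM with AAV-CTRL and 11.9 and 19.0 TPM with AAV-mVEGF-C. *Cd180* and *Ly86*, which form a receptor complex of B cells and macrophages, had log2 fold changes of −0.20 and −0.12.

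Among 16 genes of receptor trafficking and processing, 4 had a log2 fold change above 0 and 12 below, with a median of −0.081, but without AAV-CTRL 2 there were 10 above and 6 below, and on log2(TPM + 1) 0 above and 16 below with a median of −0.22. *Unc93b1* was at 348 and 462 CPM with AAV-CTRL and at 354 and 428 CPM with AAV-mVEGF-C, with overlapping groups. The chaperones of receptor folding, *Hsp90b1* and *Cnpy3*, had log2 fold changes of 0.11 ± 0.16 and −0.12 ± 0.17, and of these *Hsp90b1* had separate groups, at 711 and 660 CPM with AAV-CTRL and 760 and 715 CPM with AAV-mVEGF-C. It was the 1 gene of the 16 (6.25%, beside 16.8% of all tested genes) with both AAV-mVEGF-C libraries above the controls. In TPM its groups overlapped, at 197 and 207 TPM with AAV-CTRL and 204 and 196 TPM with AAV-mVEGF-C. *Slc15a4*, an endolysosomal transporter needed for TLR7 and TLR9 signaling, was at 32.9 and 57.3 CPM with AAV-CTRL and at 40.3 and 42.8 CPM with AAV-mVEGF-C, so that its controls lay on either side of the AAV-mVEGF-C libraries, as those of *Tlr9* did.

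The 28 adaptors and kinases had a median log2 fold change of 0.032, with 17 above 0 and 11 below, and both AAV-mVEGF-C libraries were above the controls in 6 (21.4%, beside 16.8% of all tested genes) and below them in 1 (3.57%, beside 15.2%). *Myd88* was at 101 and 77.1 CPM with AAV-CTRL and at 80.1 and 96.4 CPM with AAV-mVEGF-C. *Tirap*, which bridges TLR2 and TLR4 to MyD88, was at 30.4 and 20.4 CPM with AAV-CTRL and at 28.1 and 26.7 CPM with AAV-mVEGF-C. *Ticam1* was at 37.8 and 21.6 CPM with AAV-CTRL and at 21.94 and 24.04 CPM with AAV-mVEGF-C, and *Ticam2*, which links it to TLR4, was at 11.8 and 21.7 CPM with AAV-CTRL and at 18 and 20.7 CPM with AAV-mVEGF-C. All 4 adaptors overlapped between groups, and in each of them AAV-CTRL 1 was the highest or the lowest library. The kinases *Irak4*, *Irak1*, and *Irak2*, which act directly after MyD88, had log2 fold changes of −0.014 ± 0.17, 0.062 ± 0.14, and 0.16 ± 0.16, and for *Irak1* and *Irak2* the lower AAV-mVEGF-C library lay just above the higher control, at 90.5 against 90.3 CPM and at 59.2 against 58.5 CPM. In TPM the groups of *Irak1* and *Irak2* overlapped.

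Of 12 negative regulators, 6 had a log2 fold change above 0 and 6 below, with a median of −0.010, but on log2(TPM + 1) 3 were above and 9 below with a median of −0.17. *Tnfaip3*, which encodes the ubiquitin-editing enzyme A20, was at 1459 CPM in both AAV-CTRL libraries and at 1680 and 1935 CPM with AAV-mVEGF-C, and so did not overlap (log2 fold change 0.31 ± 0.17, edgeR adjusted p = 0.999). Among the 12, it was the 1 gene with both AAV-mVEGF-C libraries above the controls (8.33%, beside 16.8% of all tested genes). *Irak3*, *Tollip*, and *Sigirr*, which dampen signaling at the receptor or its kinases, had log2 fold changes of −0.14, −0.075, and −0.17, and *Sigirr* was separate downward, at 11.1 and 10.0 CPM with AAV-CTRL and 8.93 and 9.75 CPM with AAV-mVEGF-C. *Sigirr* was the 1 gene of the 12 with both AAV-mVEGF-C libraries below the controls (8.33%, beside 15.2% of all tested genes).

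The 15 tested target genes, which are induced by these receptors in many settings, had a median log2 fold change of 0.24, with 14 above 0 and 1 below, beside 0.0034 for all genes tested. Without AAV-mVEGF-C 2, 8 were above 0 and 7 below, with a median of 0.066, whereas without AAV-mVEGF-C 1, 15 were above 0 and 0 below, with a median of 0.48. The median was 0.39 without AAV-CTRL 2, and on log2(TPM + 1) 11 were above 0 and 4 below with a median of 0.14. In 5 of 15, or 33.3%, neither AAV-mVEGF-C library was as low as a control, a share that was 16.8% over all tested genes, while 0 of 15 had an unadjusted p under 0.05. *Il6* was at 6.55 and 8.40 CPM with AAV-CTRL and at 10.1 and 11.1 CPM with AAV-mVEGF-C (log2 fold change 0.50 ± 0.27, edgeR adjusted p = 0.999, and 0.32 without AAV-CTRL 1). *Il12b*, which encodes the p40 subunit of IL-12, was at 10.8 and 10.6 CPM with AAV-CTRL and at 11.5 and 18.4 CPM with AAV-mVEGF-C. Both cytokines had separate groups in CPM. In TPM those of *Il12b* overlapped, at 4.57 and 5.03 TPM with AAV-CTRL and 4.63 and 7.58 TPM with AAV-mVEGF-C. *Tnf* was at 76.2 and 84.1 CPM with AAV-CTRL and at 76.2 and 101 CPM with AAV-mVEGF-C, *Il1b* was at 634 and 448 CPM and at 518 and 762 CPM, and *Cxcl10* was at 16.2 and 24.8 CPM and at 20.2 and 36.5 CPM, all with overlapping groups. *Cxcl2*, a neutrophil chemokine, was at 183 and 127 CPM with AAV-CTRL and at 161 and 190 CPM with AAV-mVEGF-C. AAV-mVEGF-C 2 was the highest library for *Tnf*, *Il1b*, *Il6*, *Il12b*, *Cxcl2*, and *Cxcl10*, as it was for *Tlr2* and *Cd14*. The share of all tested genes with this pattern was not computed. *Ifnb1*, the interferon-β gene, had 0 reads in both AAV-CTRL libraries and 4 and 5 reads with AAV-mVEGF-C, too few to be tested.

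**Figure D4:**
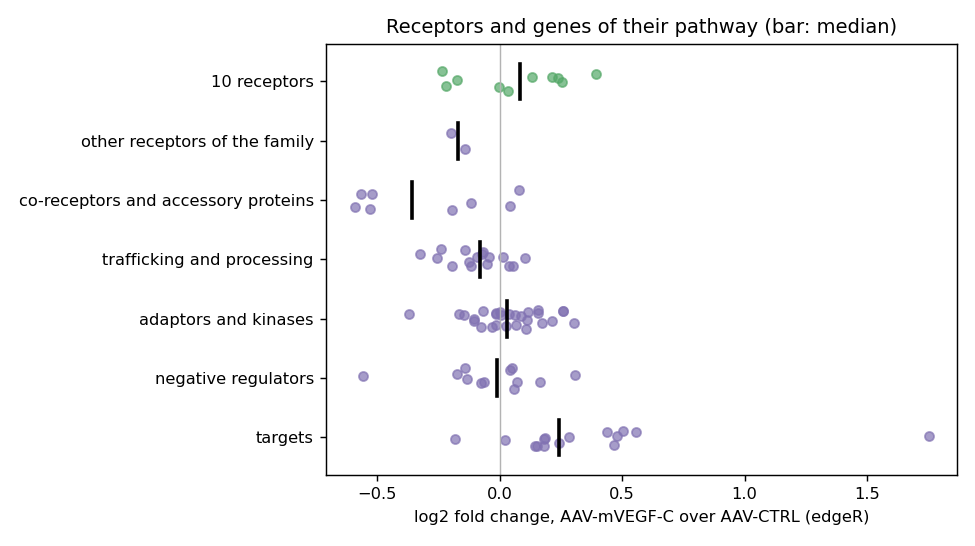
The log2 fold changes (edgeR) of the 10 receptors and of the 81 tested pathway genes by list, one point per gene with a black bar at each median. The medians run from −0.36 for co-receptors (−0.18 without AAV-CTRL 2) to 0.24 for target genes (0.066 without AAV-mVEGF-C 2), beside 0.085 for the receptors, and no point passed the adjusted threshold.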

How the data were processed

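Bulk RNA-seq of 4 libraries of dural CD45+ cells was used. The library kit was of a stranded total-RNA type (SMARTer, pico input). The submitters' processing notes name mm10, FastQC, Trimmomatic, DRAGEN, and Picard, and the annotation is not given in the sources used here. The authors deposited estimated counts per gene, of which 8.18% of values were not whole, and TPM of the same genes. Estimated counts were rounded and tested with the quasi-likelihood test of edgeR 4.0.16 (R 4.3.3; TMM, filterByExpr, glmQLFit at defaults, no covariate, Benjamini-Hochberg adjustment over 19806 genes). The standard error is the log2 fold change divided by the square root of F. The paper names DESeq2, which was run as an alternative (1.42.0), as were limma 3.58.1 with voom or on log2(TPM + 1) and log2(TPM + 0.1), RLE scaling, other filters, a replicate block, and each library left out.

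The receptors, the gene lists, and the named genes were chosen with earlier results of these data known. The 40 named genes are the 10 receptors, *Tlr11*, *Tlr12*, and 28 pathway genes set by role, and the defining marker of each cell type could be named too. With 2 pools against 2, an exact permutation test of one value cannot go below p = 0.333, and none was run. The tests were tried on simulated counts. Coordinates and sequences are those of GENCODE M21 on GRCm38 (mm10), in which 54349 identifiers, and 9 of the 10 receptors, have the same version as in the table (*Tlr6* is listed as a newer one). Whether the counting used strand is not stated. The libraries are separate pools of mice, so p-values measure the spread between pools.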

Additional observations from a re-analysis of the deposited data

How the results depend on the processing

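With 2 pools per group, the 95% intervals of the receptors reached from 0.660- to 1.19-fold for *Tlr7* and up to 2.15-fold for *Tlr3*, and changes inside a receptor's own interval cannot be told from none. No receptor had an adjusted p under 0.05 in any alternative run. The nearest were *Tlr9* and *Tlr3* without AAV-CTRL 2 (adjusted p = 0.058 and 0.0758 from edgeR) and, without AAV-CTRL 1, *Tlr13* (adjusted p = 0.151). Without AAV-CTRL 2, 3 of 10 receptors (30%, beside 28.9% of all genes tested there) had an unadjusted p under 0.05, and without AAV-CTRL 1, 2 of 10 did (20%, beside 7.75%), while in every other setting none did and the lowest adjusted p was 0.837. The median log2 fold change of the 10 receptors, 0.085, ran from −0.096 to 0.14 with 1 library left out, where the lone library is assumed to vary like the other group.

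Over all genes, the count with an adjusted p under 0.05, 0 in edgeR, was 72 with DESeq2 and 268 without a filter on low counts. It ran from 2 (without AAV-mVEGF-C 1) to 2058 (without AAV-CTRL 2) with a library left out. The count with an unadjusted p under 0.05, 523, was 1327 without the filter, 902 on log2(TPM + 1), and 884 on log2(TPM + 0.1), and ran from 164 to 6466 with a library left out. Deviations of libraries of the same experiment number correlated at −0.134 over genes, which does not show pairing. Both libraries of experiment 2 lay above both of experiment 1 in 6 receptors (60%, beside 18.8% of all tested genes). The sample titles carry the same experiment numbers in both groups. Whether libraries of the same number were handled together is not stated, and 2 pairs do not settle it. A replicate block by that number gave 11 genes, none of them a receptor. The crossed replicate block, added after seeing the data, gave 54. The log2 ratio of the summed endosomal TPM, −0.050, ran from −0.22 to 0.14. The cause of these shifts was not tested.

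The median log2 fold change of all genes moved from 0.0034 to 0.22 without the filter, to −0.078 on log2(TPM + 1), to −0.11 on log2(TPM + 0.1), and to 0.13 without AAV-CTRL 2. Values near 0 changed sign. *Tlr6* was 0.0029 with RLE factors, 0.0028 with DESeq2, 0.0079 with at least 10 reads in every library, and 0.046 and 0.062 on log2(TPM + 1) and log2(TPM + 0.1). On the same TPM scales *Tlr8* was −0.24 and −0.26, *Tlr9* −0.038 and −0.034, *Cd14* −0.10 and −0.10, *Hsp90b1* −0.016 and −0.016, and *Tnf* −0.010 and −0.011. With a library left out, the sign changed for 7 receptors. *Tlr1* ran from −0.44 to 0.022, *Tlr2* from −0.099 to 0.55, *Tlr5* from −0.14 to 0.67, *Tlr6* from −0.023 to 0.028, *Tlr8* from −0.052 to 0.33, *Tlr9* from −0.36 to 0.57, and *Tlr13* from −0.035 to 0.57. *Tlr3* (0.082 to 0.77), *Tlr4* (−0.45 to −0.0041), and *Tlr7* (−0.31 to −0.035) kept their sign. Of the other genes, *Tlr11* ran from −0.77 to 0.22, *Tlr12* from −0.77 to 0.59, *Cd14* from −0.24 to 0.35, *Cd180* from −0.58 to 0.31, *Ly86* from −0.30 to 0.081, *Lbp* from −0.94 to 0.079, *Unc93b1* from −0.26 to 0.18, *Cnpy3* from −0.29 to 0.038, and *Slc15a4* from −0.48 to 0.35. *Myd88* ran from −0.18 to 0.18, *Tirap* from −0.14 to 0.41, *Ticam1* from −0.71 to 0.071, *Ticam2* from −0.18 to 0.73, *Irak4* from −0.11 to 0.073, *Irak3* from −0.39 to 0.15, and *Tollip* from −0.25 to 0.12. *Tnf* ran from −0.066 to 0.34, *Il1b* from −0.057 to 0.50, *Cxcl2* from −0.045 to 0.46, and *Cxcl10* from −0.012 to 0.84. The sign held for *Ly96* (−0.92 to −0.27), *Cd36* (−0.80 to −0.29), *Hsp90b1* (0.061 to 0.15), *Irak1* (0.038 to 0.10), *Irak2* (0.056 to 0.26), *Sigirr* (−0.24 to −0.10), *Tnfaip3* (0.21 to 0.42), *Il6* (0.32 to 0.70), and *Il12b* (0.11 to 0.79). Without AAV-CTRL 2, and in no other setting, 4 of 81 pathway genes (4.94%, beside 9.19% of all genes tested there) passed the threshold, namely *Lbp* (−0.94, adjusted p = 0.00414 from edgeR), *Hmgb1* (−0.83, adjusted p = 0.00861), *Ticam1* (−0.71, adjusted p = 0.0311), and *Ccl3* (1.12, adjusted p = 0.0121), of which *Hmgb1* and *Ccl3* are named because of these values.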

Other observations

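The number of reads that stood for 1 TPM, in CPM without scaling factors, was not constant for a receptor across libraries. For *Tlr3* it was 4.75 and 2.48 with AAV-CTRL (libraries 1 and 2), then 4.19 and 2.67 with AAV-mVEGF-C, a range of 1.91-fold, against a median range of 1.21-fold over genes of at least 1 TPM in every library. *Tlr8* ranged 1.45-fold, *Tlr4* 1.39-fold, *Tlr6* 1.38-fold, and the other receptors from 1.14-fold to 1.23-fold. Where TPM is computed from the same counts, this number is the length used for the gene times a factor shared by all genes of a library. Ranges wider than the median then mean that the authors' program used different lengths for a gene in different libraries. Why the length differed was not tested.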
